A study of Mus musculus with 9 samples.

Results

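The aminoacyl-tRNA synthetases were followed as 36 genes of the 23309 measured in D2.0R cells. The rule lists the family by gene symbol and sets no limit on a measured value, and all 36 symbols were found. The 20 enzymes that charge tRNAs in the cytosol were set beside the 16 that do so in mitochondria, whose symbols end in 2. D2.0R is a mouse mammary cancer cell line that stays dormant on basement membrane extract (BME) and proliferates when type I collagen (COL) is mixed into it. No sample carried an allele or a drug, and the low-glucose medium held 2% serum with 2% Cultrex, a commercial BME, or with Cultrex and collagen. Cells on BME were collected after 1 day (BME day 1) or 5 days (BME day 5), and cells on BME with collagen after 5 days (BME + COL day 5), with 3 biological replicates, a, b and c, in each group. Collagen was not sampled at day 1, so its early effect was not measured, and a single line was used.

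Each synthetase joins 1 amino acid to the tRNAs that read its codons, using ATP, and so supplies the ribosome with charged tRNA. The enzymes fall into class I and class II, which have unrelated catalytic folds. In the cytosol 8 of the listed enzymes assemble with scaffold proteins into the multisynthetase complex, and the others work alone, in pairs or in smaller assemblies. Mitochondria translate their own genome and use a separate set encoded in the nucleus, except that Kars (lysine) and Gars (glycine) each supply both compartments from 1 gene.

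The synthetase RNAs were mostly lower in cells on BME at day 5 than in cells on BME + COL at the same time. Of the 20 cytosolic enzymes 17 were called lower and none higher, and of the 16 mitochondrial enzymes 10 were called lower and none higher, where 45.3% of all genes tested were called lower. The largest called differences were in Vars (valine), with 2.97-fold more RNA on BME + COL, Kars, with 2.75-fold more, and Yars2 (mitochondrial tyrosine), with 2.38-fold more. Between day 1 and day 5 on BME, 17 cytosolic enzymes and 3 mitochondrial ones were called lower (22.2% of all genes were), and Mars2 (mitochondrial methionine) was higher at day 5. The 17 fell to 2 with only the 6 libraries of that comparison in the fit, and to 4 or 5 without replicate a or b of day 1. All genes called lower fell too, from 2327 to 618, and to 1018 or 1042. Where no member of a set was called higher by limma, none was higher at an unadjusted p under 0.05 either. Only genes that averaged 1 FPKM or more entered the test (10497 genes, all 36 members among them), and a gene was called where the adjusted p of limma was under 0.05. Values are FPKM, fragments scaled to transcript length and to library size, so levels may be set side by side between genes, and differences are on the log2(FPKM + 0.1) scale with their standard error (SE).

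Depth and single libraries bear on these values. Each library held 7.21 to 9.37 gigabases of sequence over transcripts, which left a typical Cufflinks interval of ± 4.4% to 4.9% on a cytosolic synthetase transcript and of ± 7.4% to 9.8% on a mitochondrial one. Replicate b of BME day 5 was low for genes in general (median -0.27 on the log2 scale against the mean of all 9 libraries, where the others lay at -0.04 to 0.09), and 19 of the 20 cytosolic and 10 of the 16 mitochondrial members had their lowest value there. The epithelial keratins Krt8 and Krt18 reached at least 395 and 362 FPKM in every library, while Krt19 and Krt5 were near 0. Like most synthetases, Krt8, Krt18 and the cadherin Cdh1 were lower on BME at day 5 than on BME + COL, by -1.41, -1.19 and -0.92 (log2), and the 7 epithelial markers summed to 784 to 1167 FPKM against 2353 to 2460 FPKM. Of the haematopoietic, endothelial and fibroblast markers, 6 of 8, 4 of 5 and 3 of 6 stayed under 1 FPKM throughout, with Ptprc, Pecam1, Dcn and Lum near 0. The 6 fibroblast markers summed to 43.5 to 53.2 FPKM on BME at day 5 and to 4.38 to 4.54 on BME + COL, where Postn was at most 0.166 FPKM. The haematopoietic markers summed to 5.46 to 6.80 and 4.84 to 5.06 FPKM, with Cd68 2.72-fold higher on BME, and the endothelial ones to 10.3 to 12.6 and 17.1 to 18.8 FPKM, nearly all of it Flt1. The part of these markers in the synthetase results was not tested.

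Cytosolic enzymes were the more abundant set. Their means over the 9 libraries ran from 26.7 FPKM for Farsb to 113 FPKM for Kars, with a median of 51.0 FPKM. Those of the mitochondrial enzymes ran from 1.67 FPKM for Ears2 to 27.0 FPKM for Iars2, with Lars2, described below, left out. The summed level of the 20 cytosolic enzymes was 12.49, 12.0 and 10.2 times that of the 15 mitochondrial enzymes on BME at day 1, 9.72, 8.07 and 8.87 times on BME at day 5, and 10.55, 10.61 and 10.79 times on BME + COL. The ratio was lowest in the BME day 5 libraries, which overlapped neither of the other groups. An exact permutation test on the log2 ratio, two-sided, gave p = 0.1 against either group, or 0.15 after adjustment over 3 comparisons. With 3 against 3 samples 0.1 is the smallest p this test allows. The cytosolic sum includes Kars and Gars, which supply both compartments.

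The question of the first comparison was how dormant cells differ from proliferating ones at the same day of culture. Beside the 45.3% of genes called lower on BME, 30.3% were called higher. Of the cytosolic synthetases 85.0% were called lower, with a median difference of -0.90 against -0.18 for all genes. The plot of cytosolic levels by library gives all of the values described next.

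**Figure D1:**
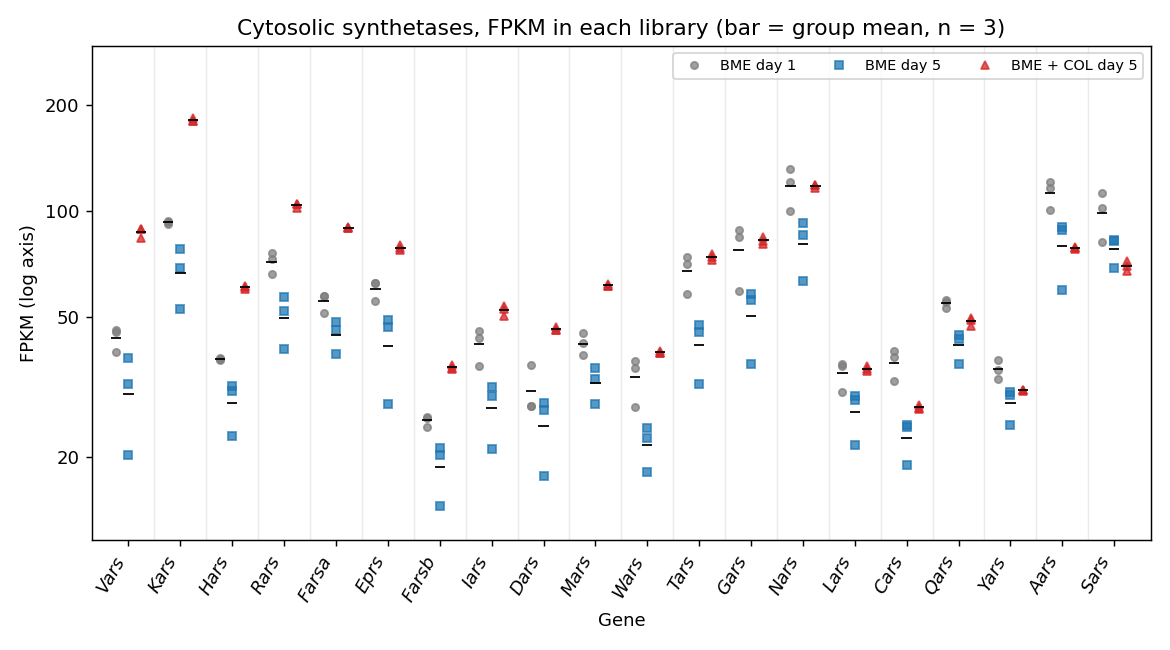
FPKM (log axis) of the 20 cytosolic synthetases in each library, ordered by the difference between BME day 5 and BME + COL day 5, with 3 points for each group and a bar at the group mean. From Vars on the left to Qars the BME + COL points lie above all BME day 5 points, and for Aars and Sars, on the right, they overlap them.

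The 8 members of the multisynthetase complex were all called lower on BME (45.3% of all genes were), with differences from -1.46 to -0.23. Kars, which charges lysine tRNAs, had 180, 179 and 183 FPKM on BME + COL and 77.8, 52.8 and 69.0 FPKM on BME at day 5. Its difference was -1.46 ± 0.13 (adjusted p = 7.02e-06). It was the most abundant cytosolic synthetase on BME + COL, and at day 5 on BME it was exceeded in mean level by Nars, Aars and Sars. Rars, for arginine, had 105, 104 and 102 FPKM on BME + COL and 57.0, 40.5 and 52.0 FPKM on BME (difference -1.07 ± 0.12, adjusted p = 3.76e-05). Eprs carries the glutamate and proline activities on 1 polypeptide, which joins a class I and a class II enzyme. It had 78.3, 79.8 and 77.4 FPKM on BME + COL and 49.0, 28.4 and 46.9 FPKM on BME (difference -0.96 ± 0.18, adjusted p = 0.000889). For Iars, the isoleucine enzyme, the values were 52.6, 53.8 and 50.4 FPKM against 31.7, 21.2 and 29.8 FPKM (difference -0.94 ± 0.15, adjusted p = 0.000309). None of these 4 genes, named for their wide differences, overlapped between the groups. The share of all genes without overlap is not given here. Replicate b of BME day 5 was the lowest library for each of the 4. Dars (aspartate) and Mars (methionine) differed by -0.94 and -0.93, and Lars (leucine) and Qars (glutamine) by less, -0.42 and -0.23. Qars differed by 1.18-fold, and its call was lost on the TPM and median-ratio scales, without short transcripts, with only the 6 libraries compared, and without replicate a of day 1 or replicate a or b of BME + COL.

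Of the 12 cytosolic enzymes outside the complex 9 were called lower on BME. Vars, for valine (chromosome 17, 35137852 to 35153274 in mm9), had 89.1, 88.8 and 83.6 FPKM on BME + COL and 38.2, 20.4 and 32.4 FPKM on BME. This was the widest difference among the cytosolic members (-1.57 ± 0.19, adjusted p = 6.19e-05). Hars, for histidine, had 60.9, 60.2 and 61.4 FPKM on BME + COL and 31.9, 23.0 and 30.8 FPKM on BME (difference -1.10 ± 0.12, adjusted p = 2.25e-05). Farsa and Farsb encode the alpha and beta subunits of 1 phenylalanine enzyme. The values of Farsa were 90.0, 89.2 and 89.7 FPKM on BME + COL and 48.5, 39.2 and 46.0 FPKM on BME (difference -1.01 ± 0.09, adjusted p = 1.09e-05). Those of Farsb were 36.6, 35.8 and 35.7 FPKM on BME + COL and 21.3, 14.6 and 20.4 FPKM on BME (difference -0.96 ± 0.13, adjusted p = 0.000109). Both were also named for their wide differences, and neither subunit overlapped between the groups. Farsb had less than 0.5 times the FPKM of Farsa in each group mean. Wars (tryptophan), Tars (threonine), Gars and Nars (asparagine) were also lower, by -0.88, -0.85, -0.74 and -0.57, and Cars (cysteine) by -0.30. The call of Cars was lost on both other scales and in most other alternatives, among them those without replicate b of day 1, replicate b of BME day 5 or any 1 BME + COL library.

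The remaining 3 cytosolic enzymes were not called. Aars, for alanine, had 79.1, 78.7 and 78.1 FPKM on BME + COL and 89.9, 59.7 and 88.4 FPKM on BME, so 2 BME libraries lay above and replicate b below (difference -0.01, 95% interval -0.35 to 0.33). Sars, for serine, had 69.8, 67.3 and 71.9 FPKM on BME + COL and 82.3, 68.9 and 82.8 FPKM on BME, with a difference of 0.16 (95% interval -0.13 to 0.44). Yars, for tyrosine, had 31.1, 31.1 and 31.0 FPKM on BME + COL and 30.1, 24.7 and 30.6 FPKM on BME, with a difference of -0.13 (95% interval -0.35 to 0.08). For Aars the direction rested on replicate b: without it Aars was called higher on BME, at 0.18. The scale also matters for these genes. Rescaling each library to TPM moved the median of all genes from -0.18 to 0.16 and turned the split of calls from 3179 higher and 4756 lower to 4858 higher and 3327 lower. On that scale 13 cytosolic enzymes were lower, all of them among the 17, and Aars, Sars and Yars were called higher.

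Both structural classes were represented. Of 18 class I members 14 were called lower (77.8%) and of 17 class II members 12 (70.6%), against 45.3% of all genes. Their medians were -0.56 and -0.74, against -0.18 for all genes. Eprs belongs to both classes and was counted in neither. Among the cytosolic enzymes alone, 8 of 9 in class I and 8 of 10 in class II were lower, with medians of -0.88 and -0.89.

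Mitochondrial synthetases were lower on BME too, in a smaller share. Of the 16, 62.5% were called lower against 45.3% of all genes, with a median of -0.47. On the TPM scale 5 of the 10 calls were lost, and 3 other members, Fars2, Hars2 and Mars2, were called higher. Of all 10497 genes 3327 were lower and 4858 higher on that scale, so the share of members lower was near that of all genes. Median-ratio scaling called 9 members lower and the same 3 higher, where 4156 of all genes were lower and 4151 higher. Fars2 was also called higher without replicate b of BME day 5, and Mars2 without replicate a.

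**Figure D2:**
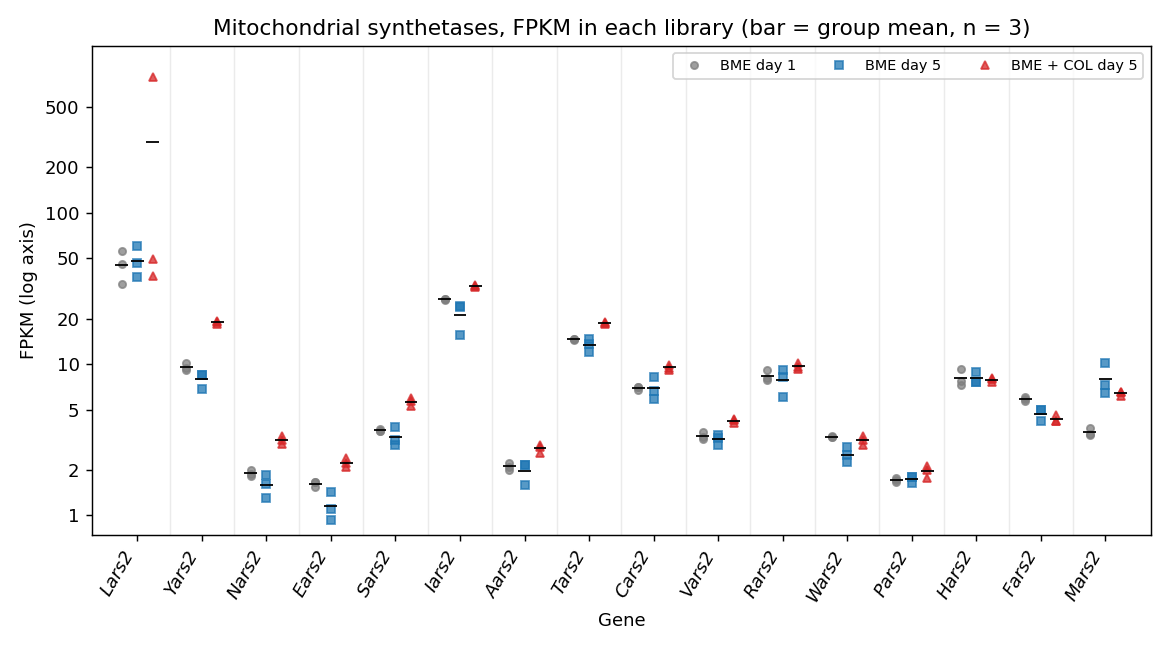
FPKM (log axis) of the 16 mitochondrial synthetases in each library, ordered by the difference between BME day 5 and BME + COL day 5, with 3 points for each group and a bar at the group mean. The BME + COL points of Yars2, Nars2, Ears2 and Sars2 lie above all BME points, and the single point of Lars2 at 791 FPKM is replicate c of BME + COL.

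Yars2, the mitochondrial tyrosine enzyme (chromosome 16, 16303058 to 16309733 in mm9), had 19.1, 19.3 and 18.4 FPKM on BME + COL and 8.51, 6.82 and 8.51 FPKM on BME (difference -1.25 ± 0.09, adjusted p = 3.09e-06). It thus differed where its cytosolic partner Yars was not called. Nars2, for asparagine, had 3.33, 3.16 and 2.94 FPKM on BME + COL and 1.86, 1.31 and 1.61 FPKM on BME (difference -0.95 ± 0.13, adjusted p = 0.000124). Ears2, for glutamate, is the member with the lowest level, at 2.38, 2.08 and 2.23 FPKM on BME + COL and 0.935, 1.11 and 1.43 FPKM on BME (difference -0.91 ± 0.15, adjusted p = 0.000426). In mitochondria this enzyme also charges the glutamine tRNA with glutamate, which an amidotransferase then converts. Sars2, for serine, had 5.29, 5.93 and 5.69 FPKM on BME + COL and 3.84, 3.13 and 2.93 FPKM on BME (difference -0.76 ± 0.10, adjusted p = 0.000111), while cytosolic Sars was not called. Iars2, for isoleucine, had 33.5, 33.1 and 32.3 FPKM on BME + COL and 24.2, 15.6 and 23.9 FPKM on BME (difference -0.66 ± 0.15, adjusted p = 0.0026). In these 5 genes, named for their wide differences, the groups did not overlap, and the share of all genes without overlap is not given here. Aars2, Tars2, Cars2, Vars2 and Wars2, the alanine, threonine, cysteine, valine and tryptophan enzymes, were lower by -0.49, -0.48, -0.47, -0.40 and -0.31. Rars2 (arginine), Pars2 (proline), Hars2 (histidine), Fars2 (phenylalanine) and Mars2 were not called, at -0.32, -0.16, 0.03, 0.11 and 0.29.

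Lars2, for mitochondrial leucine (chromosome 9, 123276058 to 123371782 in mm9), is listed apart because 1 library decides its value. It had 49.3 and 38.3 FPKM in replicates a and b of BME + COL and 791 FPKM in replicate c, against 60.6, 46.7 and 37.6 FPKM on BME at day 5 and 46.1, 55.6 and 33.7 FPKM at day 1. The difference of -1.27 ± 0.94 did not pass the test (adjusted p = 0.239), and without replicate c it was 0.12 ± 0.26 (adjusted p = 0.685). Rn45s, the ribosomal RNA precursor, stood out in that library as well, at 3105 FPKM against 140 and 102 FPKM in replicates a and b. Among all genes tested 15 had more than 3 times the FPKM of the next library there, Lars2 and Rn45s among them. The part of ribosomal RNA in the Lars2 value was not tested.

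The second comparison asked what changed over time on BME, from day 1 to day 5. In it 22.2% of all genes were called lower at day 5 and 9.09% higher. Among the cytosolic enzymes 17 of 20 were called lower and none higher, with a median of -0.51 against -0.15 for all genes. The differences of all 20 were negative and fell in a narrow range, from -0.71 to -0.32. This was 1.64-fold for Cars, 1.63-fold for Tars and 1.55-fold for Wars, the largest 3. Cars, for cysteine, had 40.1, 38.4 and 32.9 FPKM at day 1 and 24.8, 19.0 and 24.3 FPKM at day 5 (difference -0.71 ± 0.12, adjusted p = 0.00329). Aars had 121, 116 and 100 FPKM at day 1 and 89.9, 59.7 and 88.4 FPKM at day 5 (difference -0.52 ± 0.15, adjusted p = 0.0305). Dars, Lars and Sars did not pass, at -0.35, -0.37 and -0.33. These calls were close to the threshold. With only the 6 libraries of the comparison in the fit 2 cytosolic enzymes, Cars and Qars, were called lower, without replicate a of day 1 there were 4, and without replicate b of day 1 there were 5. In the same order all genes called lower fell from 2327 to 618, 1018 and 1042. Without any 1 of the BME + COL libraries, which enter only through the shared spread, 11 were called, and without replicate c of day 1 or any 1 of the BME day 5 libraries 15 to 18 were.

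Mitochondrial enzymes changed less from day 1 to day 5, with a median of -0.12 close to that of all genes. Ears2, Fars2 and Wars2 were called lower, by -0.47, -0.32 and -0.38, and these 3 calls were lost with only the 6 libraries compared, without short transcripts and without replicate a or b of day 1. That of Fars2 was also lost by median-ratio scaling, and that of Ears2 in most alternatives, among them those without any 1 library other than replicate c of BME day 5. Mars2, for methionine (chromosome 1, 55294021 to 55296902 in mm9), had 3.46, 3.39 and 3.80 FPKM at day 1 and 6.45, 10.2 and 7.28 FPKM at day 5, which did not overlap. It rose by 1.12 ± 0.15 (adjusted p = 0.00126), was the only synthetase called higher at day 5, and had its highest value in replicate b, where most other members had their lowest. Its cytosolic partner Mars had 44.9, 42.1 and 39.1 FPKM at day 1 and 35.8, 28.3 and 33.3 FPKM at day 5 (difference -0.38 ± 0.10, adjusted p = 0.0203). In each of the 13 pairs whose symbols differ only by the final 2, the cytosolic difference was below the mitochondrial one between day 1 and day 5. Between BME and BME + COL at day 5 it was below in 7 of 13. Without replicate c of BME + COL, where Lars2 stands apart, it was below in 8 of 13. The enzymes for phenylalanine, glutamate and proline do not pair by symbol and were not counted. Between day 1 and day 5 Farsa (-0.315) and Farsb (-0.459) stood beside Fars2 (-0.320), so Farsa was not below it. Eprs (-0.575) stood beside Ears2 (-0.472) and Pars2 (0.019).

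**Figure D3:**
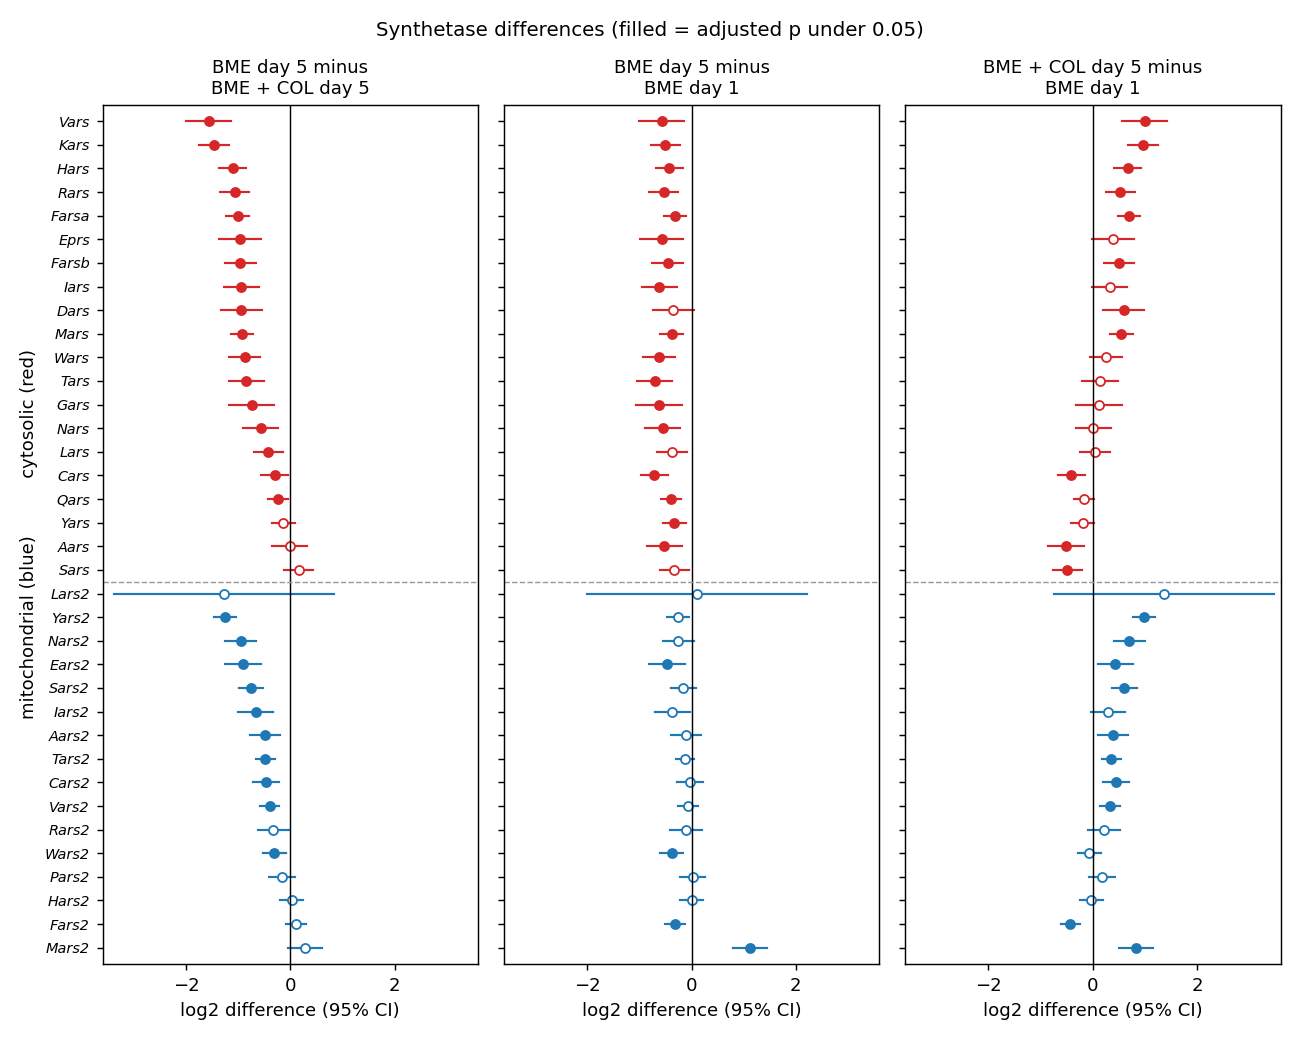
Log2 differences with 95% intervals for the 20 cytosolic (red) and 16 mitochondrial (blue) synthetases in the 3 comparisons, with filled points where the adjusted p was under 0.05. In the middle panel all cytosolic points lie below 0, and the mitochondrial points run from -0.47 (Ears2) to 1.12 (Mars2).

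The third comparison set BME + COL at day 5 against BME at day 1. Both earlier comparisons share a group with it, so its values follow in part from theirs. Here 34.2% of all genes were called higher on BME + COL and 31.8% lower, with a median near 0. Cytosolic enzymes went both ways, with 8 of 20 higher and 3 lower. Vars rose from 45.5, 45.9 and 39.8 FPKM by 1.99-fold and Kars from 93.7, 91.9 and 93.3 FPKM by 1.95-fold, and Farsa, Hars, Dars, Mars, Rars and Farsb rose by 1.41-fold to 1.62-fold. Aars, Cars and Sars were lower on BME + COL, by -0.51, -0.42 and -0.49. Qars and Yars, at -0.17 and -0.20, were also called lower without replicate b of BME day 5 and on the TPM and median-ratio scales. Sars had 113, 102 and 81.3 FPKM at day 1, above all 3 BME + COL libraries (difference -0.49 ± 0.13, adjusted p = 0.00721). Nars, Gars and Tars, which were lower on BME at day 5 than in either other group, were not called here, at 0.01, 0.12 and 0.14.

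Of the mitochondrial enzymes 9 of 16 were higher on BME + COL than at day 1 and 1 was lower. Yars2 rose from 9.09, 9.39 and 10.1 FPKM by 1.98-fold (difference 0.98 ± 0.09, adjusted p = 2.22e-05). Mars2 rose by 1.78-fold, to 6.57, 6.55 and 6.11 FPKM, so it was above its day 1 level on both matrices at day 5. Nars2, Sars2, Cars2, Ears2, Aars2, Tars2 and Vars2 rose by 0.70 to 0.33. On the TPM scale 4 of the 9 calls held. Of all 10497 genes 2638 were higher on that scale, so the share of the 16 members was near that of all genes. Fars2, the phenylalanine enzyme, went the other way, from 6.05, 5.90 and 5.73 FPKM at day 1 to 4.24, 4.23 and 4.60 FPKM on BME + COL (difference -0.43 ± 0.09, adjusted p = 0.0017), and it was also lower on BME at day 5, at 4.96, 4.19 and 5.00 FPKM.

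Kars is the member for which the files separate forms. Both transcripts lie on chromosome 8 of the mm9 build (114517340 to 114535205, minus strand) and share exon 1. The 14-exon transcript opens its longest reading frame in exon 1 and runs for 595 codons. The 15-exon transcript carries an extra exon 2 of 180 bases (114532107 to 114532286). There the ATG of exon 1 meets a TAA stop after 22 codons, and the longest frame, of 624 codons, starts inside the extra exon. The longer protein is known as the mitochondrial form. The coding bases from each start to the end of its exon, read from the mm9 genome and shown because they are what sets the forms apart, have the start codon in capitals.
Kars 15-exon transcript, exon 2, chr8:114532107-114532252: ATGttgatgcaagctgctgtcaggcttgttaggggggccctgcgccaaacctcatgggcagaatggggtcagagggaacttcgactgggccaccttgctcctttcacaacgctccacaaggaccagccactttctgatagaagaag
Kars 14-exon transcript, exon 1, chr8:114535110-114535168: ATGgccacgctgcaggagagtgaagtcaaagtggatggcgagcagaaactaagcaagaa

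The 14-exon transcript, for the cytosolic enzyme, had 152, 149 and 155 FPKM on BME + COL, 60.7, 39.1 and 53.2 FPKM on BME at day 5 and 74.0, 73.5 and 71.8 FPKM at day 1. The 15-exon transcript had 28.1, 29.9 and 28.4 FPKM on BME + COL, 17.1, 13.7 and 15.8 FPKM on BME at day 5 and 19.7, 18.4 and 21.5 FPKM at day 1. Both were lower on BME, the first to 0.335 times and the second to 0.538 times the mean on BME + COL. The 15-exon share of Kars was 15.6%, 16.7% and 15.5% on BME + COL, 21.9%, 25.9% and 22.9% on BME at day 5 and 21.0%, 20.1% and 23.1% at day 1. The share on BME + COL was below all other libraries. An exact permutation test, two-sided, gave p = 0.1 against either BME group, the smallest that 3 against 3 samples allow, and p = 0.15 after adjustment over the 3 comparisons. The same exact test gave p = 0.3 between day 1 and day 5 on BME. The transcripts differ by 1 exon, so their split rests on few reads and on how Cufflinks assigned the rest. Gars, the other gene with both forms, is listed with 1 transcript, so its forms were not separated.

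**Figure D4:**
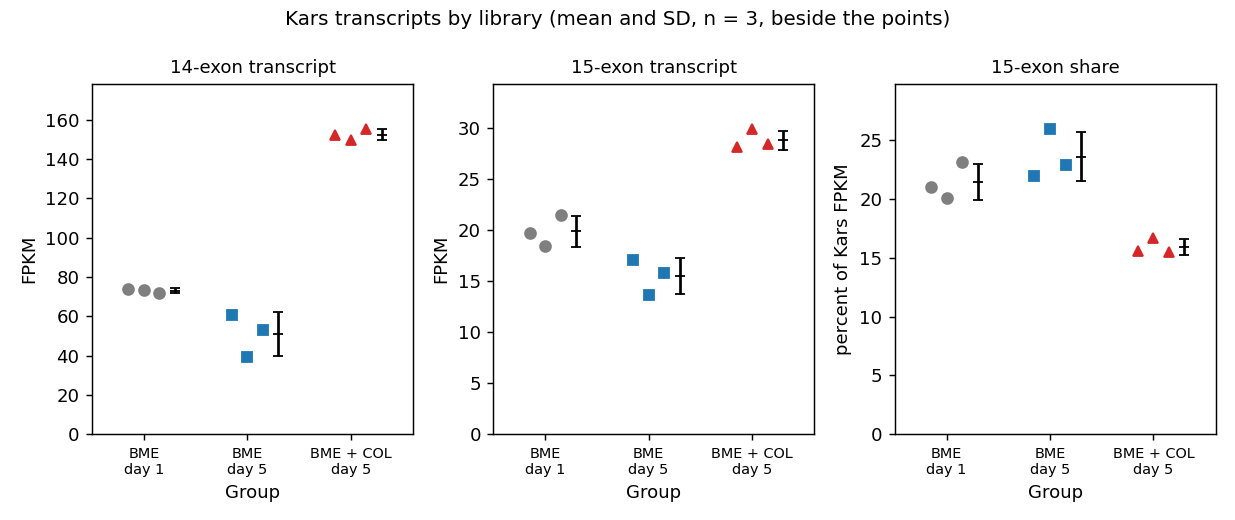
FPKM of the 14-exon and the 15-exon Kars transcript, and the 15-exon share in percent of Kars FPKM, by library, with the mean and SD of each group beside its 3 points. Both transcripts are highest on BME + COL, and the 15-exon share is lowest there, between 15.5% and 16.7%.

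Hars and Hars2, the cytosolic and mitochondrial histidine enzymes, are neighbouring genes that are read in opposite directions, with 74 bases between their annotated starts. Hars2 had 7.96, 8.04 and 7.65 FPKM on BME + COL, 7.62, 7.67 and 8.92 FPKM on BME at day 5 and 7.72, 7.29 and 9.22 FPKM at day 1. In the main fit Hars2 was not called in any comparison, while Hars was called in all 3. On the TPM and median-ratio scales Hars2 was called higher on BME than on BME + COL at day 5. The call of Hars between day 1 and day 5 on BME was lost in several alternatives. These were leaving out short transcripts, only the 6 libraries compared, and leaving out any 1 day 1 library. The log2 ratio of Hars to Hars2 was 2.95 ± 0.05 on BME + COL, 1.81 ± 0.24 on BME at day 5 and 2.25 ± 0.18 at day 1 (SD). The ratios on BME + COL lay above all others, where the exact permutation test gave its smallest p of 0.1 (0.15 after adjustment over 3 comparisons).

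Several synthetase genes are known targets of ATF4, the transcription factor that amino acid shortage induces. Promoters of RefSeq (GRCm38.p6, from 250 bases before to 50 bases after the start) were at hand for 26 members and were searched on both strands for TGATGNAA, the core of the C/EBP-ATF composite element that ATF4 binds with a C/EBP partner. The other 10 (Cars, Hars, Lars, Mars, Nars, Rars, Vars, Wars, Hars2 and Pars2) were not searched. It was found in 5 of the 26 (Aars, Gars, Iars, Tars and Yars), all cytosolic, and in 4.51% of all 27025 genes. Those with a match upstream of the start are shown, with 30 bases to either side where these lie upstream, and the matched letters, here on the opposite strand, in capitals.
Aars, 112 bases before the start, plus strand, chr8:111033700-111033767: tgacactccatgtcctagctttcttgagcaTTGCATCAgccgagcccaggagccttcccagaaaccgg
Gars, 30 bases before the start, plus strand, chr6:55037941-55038000: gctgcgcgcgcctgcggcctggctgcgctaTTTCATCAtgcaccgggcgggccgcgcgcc
Tars, 15 bases before the start, minus strand, chr15:11399659-11399703: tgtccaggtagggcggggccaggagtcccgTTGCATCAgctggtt

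All 5 genes with the element were called lower at day 5 than at day 1 on BME, by -0.71 to -0.33, as were 17 of all 20 cytosolic enzymes and 22.2% of all genes. These 5 calls were all lost with only the 6 libraries compared, and all but that of Tars without replicate a or b of day 1. Between BME and BME + COL at day 5 the 5 genes parted, with Gars, Iars and Tars lower on BME and Aars and Yars not called. The E-box CACGTG, a palindrome that MYC and its relatives bind, was found in Aars, Ears2, Farsb, Iars and Tars, 5 of the same 26, and in 8.09% of all genes. Aars, Iars and Tars held both motifs, at positions that did not overlap. A match describes the letters only, since binding was not measured.

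The ATF4 branch, a list of 18 genes around that factor, held genes of both directions. Between BME and BME + COL at day 5, 9 were lower and 6 higher (33.3%), shares near those of all genes (45.3% and 30.3%), with a median of -0.31. The largest fall was in Psat1, of serine synthesis, at -2.04 ± 0.28 (adjusted p = 0.000115), and the largest rise in Slc7a11, the cystine transporter, at 3.30 ± 0.11 (adjusted p = 6.12e-08). Atf4 itself was lower by -0.39 (adjusted p = 0.0398). From day 1 to day 5 on BME 8 of the 18 were lower (44.4%, against 22.2% of all genes) and none higher, with Psat1 again lowest, at -1.10, and Cebpb highest, at 0.25 without a call. Between BME + COL and day 1, 4 were higher and 7 lower (22.2% and 38.9%, against 34.2% and 31.8% of all genes), from 0.95 for Psat1 to -4.03 for Slc7a11.

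Partners of the synthetases were mostly lower on BME as well. The list of 14 held, among others, genes for scaffolds, tRNA export, amidotransferase subunits and elongation factors. Of the 14, 13 were lower on BME than on BME + COL at day 5 (92.9%, against 45.3% of all genes). None was higher, the median was -0.65, and Sepsecs was not called, at -0.20. All 3 scaffold proteins of the multisynthetase complex were among the 13. Eef1e1 had 65.1, 68.6 and 66.9 FPKM on BME + COL and 25.9, 15.6 and 21.5 FPKM on BME (difference -1.70 ± 0.15, adjusted p = 9.25e-06). Aimp2 differed by -1.65 and Aimp1 by -0.78. Eef1e1 and Aimp2 thus differed by more than any of the 8 enzymes of the complex, whose widest difference was -1.46. Tufm, the mitochondrial elongation factor that carries charged tRNA to the ribosome, was lower by -1.28. From day 1 to day 5 on BME 4 of the 14 were lower (28.6%, near the 22.2% of all genes), with Eef1e1 lowest, at -0.53, and Dtd1 highest, at 0.18 without a call. Against day 1, 9 were higher on BME + COL (64.3%, against 34.2% of all genes), up to 1.29 for Aimp2, and none lower, with Mtfmt lowest, at -0.07 without a call.

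Cell cycle genes were set beside the synthetases. All 8 listed were lower on BME than on BME + COL at day 5 (45.3% of all genes were), from -0.85 for Pcna to -3.13 for Cdc20. All 8 were also higher on BME + COL than at day 1 (34.2% of all genes were), where cytosolic synthetases went both ways. From day 1 to day 5 on BME none of the 8 passed the limma test, where 22.2% of all genes were called lower. Their differences ran from -0.95 for Ccnb1 to -0.36 for Pcna. Of the 8, 3 were lower at an unadjusted p under 0.05. Their median was -0.62, against -0.51 for the cytosolic synthetases, of which 17 passed, or 2 with only the 6 libraries compared. The SE ran from 0.185 (Pcna) to 0.397 (Top2a) for the cell cycle genes. For the cytosolic synthetases it ran from 0.086 (Qars) to 0.194 (Gars), so the numbers of calls do not compare the sizes of change. Cdc20 had 16.4, 5.08 and 12.3 FPKM on BME at day 5, lowest in replicate b, as most cytosolic synthetases were. The part of proliferation in the synthetase differences was not tested, and in these bulk samples fewer cells of a kind and less of an RNA per cell cannot be told apart.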

How the data were processed

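RNA of D2.0R cells was sequenced from 9 samples, 3 in each of 3 groups taken from the labels. The deposited files are Cufflinks output of the authors, with FPKM and an interval for each of 30563 RefSeq transcripts on mm9 (NCBIM37). The submitters' processing notes list Partek, TopHat2 2.0.8, Trimmomatic 0.30 and CASAVA 1.8.4, with no roles given. For Cufflinks no version is stated in the sources used here. FPKM are shares of a library, so a few abundant RNAs can shift all other genes.

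FPKM were summed by gene symbol, and log2(FPKM + 0.1) was fitted with limma 3.58.1 (R 4.3.3), an intensity trend and 3 group means (6 residual degrees of freedom). Tests were two-sided, with Benjamini-Hochberg adjustment over the 10497 genes kept. The fit was tested on simulated data. Single values were compared by exact permutation (scipy 1.17.1 in Python 3.11.15). The study states that the replicates are biological.

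Members and lists were chosen with earlier results of these data known. Values by library were given for the 8 cytosolic and 6 mitochondrial members with the widest difference at day 5 and for any member called against most of its group, and from each other list the largest rise and fall were named. The 3 uncalled cytosolic enzymes, Hars2, Mars, Rn45s, Aimp1, Aimp2, Tufm, Atf4 and the smallest cell cycle changes were added after their values were seen. Gatb was matched under its older symbol Pet112. Alternatives were a pseudocount of 1 FPKM, no filter, TPM, median-ratio scaling, leaving out transcripts under 300 nt with rescaling, the most abundant transcript, only the 6 libraries compared, a replicate block and leaving out each library.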

Additional observations from a re-analysis of the deposited data

How the results depend on the processing

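Counts of called members depended most on scaling and on the fit for day 1 against day 5. On the TPM scale 13 cytosolic and 5 mitochondrial members were lower and 3 and 3 higher on BME than on BME + COL at day 5, and against day 1 BME + COL had 5 cytosolic and 2 mitochondrial members lower and 4 mitochondrial members higher. Of all 10497 genes 3327 were lower and 4858 higher in the first of these, and 4870 lower and 2638 higher in the second. Median-ratio scaling gave 1 cytosolic and 3 mitochondrial members higher on BME than on BME + COL, 1 mitochondrial member lower from day 1 to day 5, and 5 cytosolic members lower on BME + COL than at day 1. In the same order 4151, 1839 and 3849 of all genes were called in these directions. Without short transcripts 8 cytosolic and 0 mitochondrial members were lower from day 1 to day 5, and all genes called lower fell from 2327 of 10497 to 1225 of 10417. With only the 6 libraries compared these were 2 and 0 by limma, where 618 of all 10497 genes were lower. In that setting 5 cytosolic members and 3768 of all genes were lower on BME + COL than at day 1. Leaving out each library gave 4 to 18 cytosolic and 0 to 6 mitochondrial members lower from day 1 to day 5, the fewest without replicate a or b of day 1 and the 6 without replicate a of BME day 5, and 11 cytosolic without any 1 BME + COL library. All genes called lower ran from 1018 without replicate a of day 1 to 3248 without replicate a of BME day 5. For BME against BME + COL leaving out each library gave 15 to 17 cytosolic and 9 to 11 mitochondrial members lower and 0 to 1 of either set higher, and for BME + COL against day 1, 2 to 5 cytosolic members lower.

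Between BME and BME + COL 7 members turned in sign on the TPM scale, of which Aars (0.33), Cars (0.047), Qars (0.11), Yars (0.21) and Wars2 (0.023) were called on 1 or other scale and Pars2 (0.18) and Rars2 (0.019) on neither, and Aars ran from -0.11 to 0.18 when single libraries were left out, the highest without replicate b of BME day 5. The causes were not tested. The pseudocount, the filter and the most abundant transcript moved no count by over 1.5 times. Same-letter correlations ran from -0.23 to 0.10 and different-letter ones from -0.18 to 0.18. These correlations gave no sign of pairing by replicate letter, but with 3 samples a group they cannot decide whether the samples were paired. With a replicate block 16 cytosolic and 11 mitochondrial members were lower on BME than on BME + COL, and 16 and 2 from day 1 to day 5. Only 3 samples a group limit the smallest exact p to 0.1.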
